A study of Mus musculus with 3 samples.

Results

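Matrix metalloproteinases (MMPs) and the proteins that restrain them were followed in C2C12 cells, a mouse myoblast line able to fuse into muscle fibres in culture. The set comprised 10 genes, of 12393 genes with a probe set of 1 gene symbol: the proteinases Mmp14, Mmp2, Mmp3, Mmp9, Mmp11 and Mmp13, and the inhibitors Timp1, Timp2, Timp3 and Reck. Every probe set that carried 1 of these symbols was taken, which gave 21 of the 22690 on the array. The genes were selected in part on signals of these arrays, with the low Mmp14 signal in DGK-zeta cells already known, so all values are descriptions.

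MMPs are zinc-dependent enzymes that cut collagens, laminins and other proteins of the extracellular matrix, and cell surface proteins as well. Most are made as inactive precursors, and the tissue inhibitors of metalloproteinases (TIMPs) bind the active enzymes. In muscle, matrix breakdown accompanies the migration and fusion of myoblasts. MMP-14, anchored in the membrane, and TIMP-2 together form the complex on the cell surface that activates pro-MMP-2, so TIMP-2 serves there as an adaptor as well as an inhibitor.

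The 3 groups were C2C12 cells transfected with DGK-zeta (diacylglycerol kinase zeta, which converts diacylglycerol to phosphatidic acid), C2C12 cells transfected with EGFP (enhanced green fluorescent protein, the transfection control) and untreated C2C12 cells. All carried the time label 12 h, were grown with fetal calf serum, and had been plated for 18 h when the FuGene reagent was used for transfection. Sources used here do not state the share of cells that took up DNA, nor the promoter and sequence of the construct, so each transfected culture may mix cells with and without it. Each group had 1 array, so no difference here has a replicate check and no p-value is given.

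A probe set counted as measured on an array at a signal of 107 or more, the median of all deposited values pooled. Lower values were set to this floor in ratios, and a ratio with 1 side under it is written "at least". Dgkz, the transfected gene, had signals of 13466 in DGK-zeta cells, 1053 in EGFP cells and 1500.1 in untreated cells by its brighter probe set. The other Dgkz probe set had 4315, 240.3 and 188 in the same order, so both were highest on the array labelled DGK-zeta. Of 6 myoblast markers 4 were measured on all 3 arrays, while Cav3 and Myod1, which encodes the myogenic factor MyoD, stayed under the floor on each. For DGK-zeta against EGFP the log2 ratios of these 4 were -0.96 for Des, -0.67 for Itga7, -0.62 for Cdh15 and 0.73 for Myf5, with a median of -0.65. Against untreated cells they were -0.73, -0.59, -0.18 and 0.94 in the same order, with a median of -0.38. The part of these marker differences in those of the MMP genes was not tested. Of 5 macrophage and leukocyte markers only Csf1r passed the floor, at 121 in untreated cells. None of 4 endothelial, 4 epithelial and 2 adipocyte markers on the array passed it, and of 5 markers of differentiated muscle Acta1 did, at 96.9 in DGK-zeta cells, 144 in EGFP cells and 146 in untreated cells.

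Of the 10 genes, 6 were measured: Mmp14, Mmp2, Mmp11, Timp1, Timp2 and Timp3, through 15 of the 21 probe sets. The 4 others, Mmp3, Mmp9, Mmp13 and Reck, were under the floor on all 3 arrays. Of the 6 measured genes 4 had more than 1 measured probe set: 5 for Timp2, 4 for Timp3 and 2 each for Mmp14 and Mmp2. Levels of different probe sets are not set against each other, since probes differ in brightness.

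**Figure D1:**
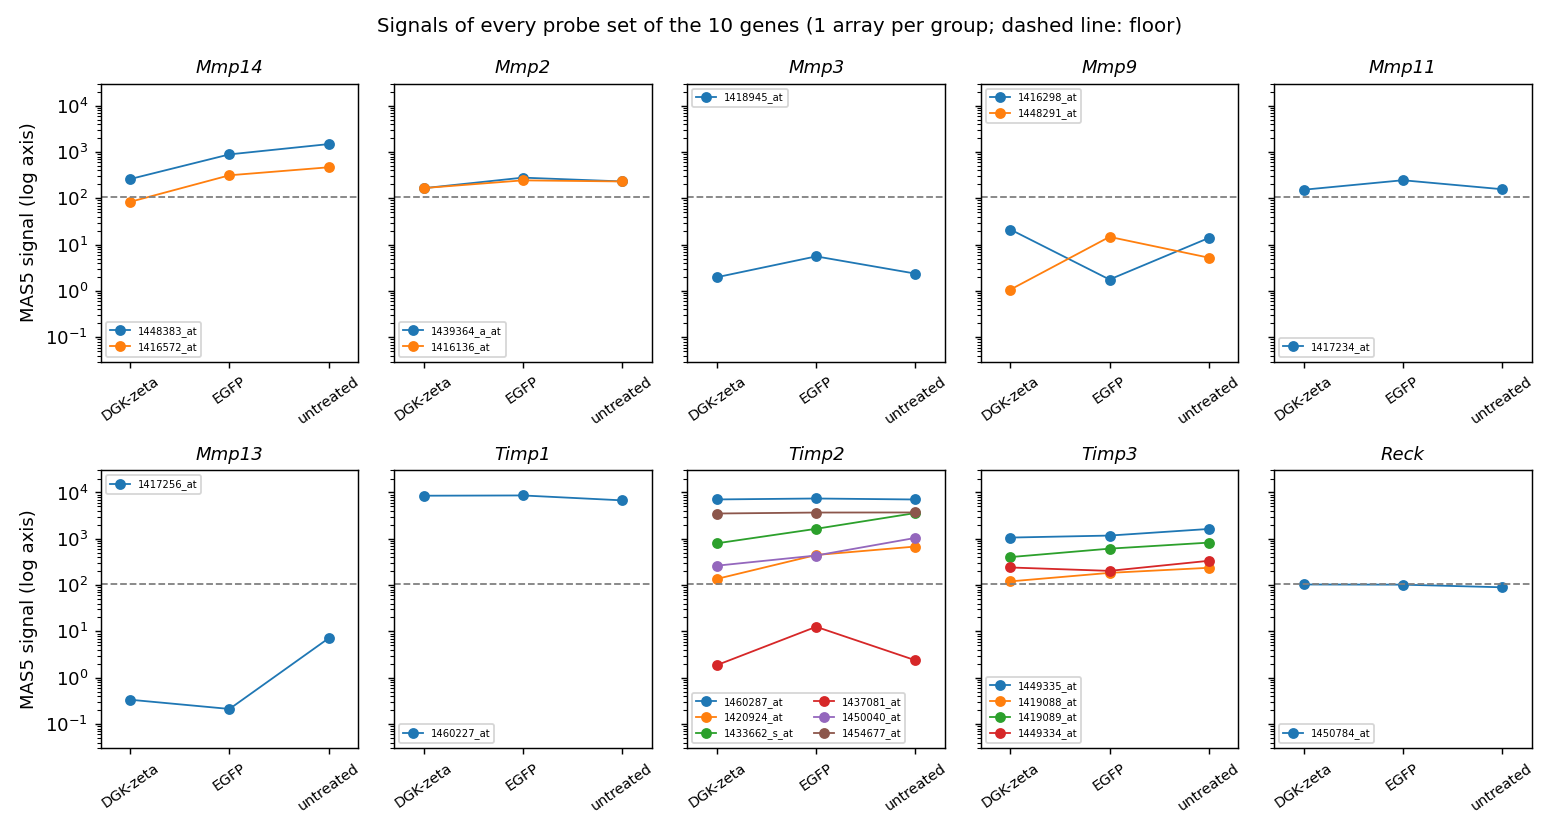
MAS5 signal (log axis) of each of the 21 probe sets in DGK-zeta, EGFP and untreated cells, 1 panel per gene, 1 point per array and 1 line per probe set. The dashed line is the floor of 107. Both Mmp14 probe sets are lowest in DGK-zeta cells, the 5 measured Timp2 probe sets fall into level and sloping ones, and Mmp3, Mmp9, Mmp13 and Reck stay under the line.

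Promoter sequences of 5 members are shown because they stand for both kinds of promoter in the set, those of Mmp14, Timp1 and Timp2 with a GC box and those of Mmp3 and Mmp13 with an AP-1 site and a TATA box. RefSeq (GRCm38.p6) gave promoters for 8 of the 10 members, and the 250 bases before the gene start are printed 5' to 3' on the strand of the gene. They are chr14:54431348-54431597 (+ strand) for Mmp14, chrX:20869916-20870165 (+) for Timp1, chr11:118355412-118355661 (-) for Timp2, chr9:7445572-7445821 (+) for Mmp3 and chr9:7272264-7272513 (+) for Mmp13. Capitals mark 3 motifs, each searched on both strands with overlaps allowed. The GC box, bound by Sp1 and its relatives, was searched as GGGCGG. The site of AP-1, a dimer of Jun and Fos proteins known at many MMP genes, was searched as TGANTCA. The TATA box was searched as TATAAA.
Mmp14: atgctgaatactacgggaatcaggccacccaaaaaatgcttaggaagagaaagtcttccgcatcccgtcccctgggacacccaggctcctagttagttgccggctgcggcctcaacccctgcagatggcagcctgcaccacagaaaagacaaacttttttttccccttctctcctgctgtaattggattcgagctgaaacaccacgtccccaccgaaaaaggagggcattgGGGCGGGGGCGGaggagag
Timp1: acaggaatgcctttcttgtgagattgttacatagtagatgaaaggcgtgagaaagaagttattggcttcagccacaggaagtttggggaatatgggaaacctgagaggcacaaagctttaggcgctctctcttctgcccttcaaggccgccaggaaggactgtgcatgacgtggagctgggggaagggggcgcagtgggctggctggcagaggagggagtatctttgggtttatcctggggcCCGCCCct
Timp2: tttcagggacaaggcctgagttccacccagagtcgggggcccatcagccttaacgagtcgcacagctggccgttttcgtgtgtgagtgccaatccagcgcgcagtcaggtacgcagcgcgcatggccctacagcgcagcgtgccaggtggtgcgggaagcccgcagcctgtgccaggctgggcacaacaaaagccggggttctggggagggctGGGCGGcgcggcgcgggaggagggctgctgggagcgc
Mmp3: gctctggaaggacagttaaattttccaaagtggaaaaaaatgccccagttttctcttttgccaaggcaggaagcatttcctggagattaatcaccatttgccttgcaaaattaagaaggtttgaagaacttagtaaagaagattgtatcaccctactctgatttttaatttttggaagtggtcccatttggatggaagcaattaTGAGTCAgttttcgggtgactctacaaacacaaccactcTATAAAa
Mmp13: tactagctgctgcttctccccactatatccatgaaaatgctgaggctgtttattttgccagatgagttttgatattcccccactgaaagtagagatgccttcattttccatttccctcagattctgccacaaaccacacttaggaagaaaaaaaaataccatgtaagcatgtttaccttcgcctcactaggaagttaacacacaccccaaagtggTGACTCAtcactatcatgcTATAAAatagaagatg

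A GC box stood in 6 of the 8 promoters, those of Mmp14, Mmp11, Timp1, Timp2, Timp3 and Reck, and in 32.7% of 32817 RefSeq promoters over the same 250 bases. Mmp14 had 2 such boxes, beginning 19 and 13 bases before the start and touching each other, and Mmp11 had 2 that began 52 and 19 bases before it. Mmp3 and Mmp13 had no GC box but each had an AP-1 site, at 46 and 35 bases before the start, found in 6.75% of promoters. Each also had a match to the TATA box, found in 12.4%. These matches began only 7 bases before the annotated start in Mmp3 and 16 in Mmp13. Whether the annotated starts are those used in these cells was not tested. No promoter of the 8 held both a GC box and an AP-1 site. Reck, which like Mmp3 and Mmp13 was not measured, had 2 GC boxes and neither other motif, in a stretch that ran 9 bases past the annotated gene start, while the other 7 stretches ended at it. A match of letters is not a bound site.

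Mmp14, which encodes the membrane-type enzyme MT1-MMP, a collagenase of the cell surface, had the largest difference of the set. Its brighter probe set (1448383_at) had signals of 262 in DGK-zeta cells, 891 in EGFP cells and 1484 in untreated cells. DGK-zeta cells were thus 3.40-fold below EGFP cells and 5.66-fold below untreated cells, and EGFP cells were 1.67-fold below untreated cells. The other Mmp14 probe set (1416572_at) had 84.4, 315 and 469 in the same order, under the floor in DGK-zeta cells. By it the gene was at least 2.94-fold below EGFP and at least 4.37-fold below untreated cells. The 2 probe sets were designed from 1 source record in the platform annotation and gave the same order of the 3 arrays, so DGK-zeta was lowest and untreated highest by each. In whole cultures fewer cells making a transcript and less of it per cell cannot be told apart.

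The spread between probes was taken from genes with 2 bright probe sets. In 2245 genes the 2 brightest probe sets were both measured on all 3 arrays. Within each gene the log2 ratio of the brightest was subtracted from that of the second. The median difference was -0.13 for DGK-zeta against EGFP, -0.14 for DGK-zeta against untreated and 0.002 for EGFP against untreated. The SD of this difference over genes, divided by the square root of 2, served as the SD of a single probe set. It was 0.40 for DGK-zeta against EGFP, 0.50 for DGK-zeta against untreated and 0.27 for EGFP against untreated. The Mmp14 log2 ratios by the brighter probe set were -1.76, -2.50 and -0.74. This SD covers probes on 1 RNA extract and not the spread between cultures, and Mmp14 was chosen with its low DGK-zeta signal known, so nothing is read from setting its ratios beside it. As a description of the chosen gene, Mmp14 was the 21st lowest of 6926 against EGFP and the 15th lowest of 6866 against untreated cells.

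Mmp14 was the only 1 of the 6 measured genes at least 2-fold lower in DGK-zeta than in EGFP cells, where 2.84% of all 6926 genes measured on either array were. It was likewise the only 1 of 6 against untreated cells (2.80% of 6866 genes) and against both (1.46% of 6804 genes). No member was at least 2-fold higher in DGK-zeta cells, where 0.347% of all genes were against EGFP, 1.34% against untreated cells and 0.279% against both. The choice of Mmp14 drew on these comparisons, which also share the DGK-zeta array, so nothing is read from these counts. The gene just inside the 2-fold rule against EGFP was Mmp14 itself and the one just outside was Mmp2 at 1.69-fold.

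The 5 genes whose signals over the 3 arrays lay nearest to those of Mmp14, by Euclidean distance of centred log2 signals among 6433 other genes measured on all 3, were Pip5k1a, Bicd2, Sp1, Flnc and Slc25a30. Pip5k1a, a phosphatidylinositol phosphate kinase whose products include the precursor of diacylglycerol, lay closest at a distance of 0.09, with signals of 128, 419 and 666 in DGK-zeta, EGFP and untreated cells. Its 3 other probe sets went the other way or stayed level: 323, 132 and 144 by 1426009_a_at, 371, 243 and 202 by 1455191_x_at, and 273, 262 and 247 by 1435039_a_at. Flnc, the muscle filamin that crosslinks actin, had 226, 626 and 1031 by its 1 probe set, at a distance of 0.25. Sp1, a transcription factor that binds GC boxes, had 388, 1579 and 2287, at a distance of 0.19. Its other probe set was under the floor on all 3 arrays, at 69.9, 71.4 and 77.6. Bicd2, an adaptor of the dynein motor, lay at 0.19 as well and Slc25a30, a mitochondrial carrier, at 0.26. Among the dimmer Bicd2 probe sets, 1450733_at had 56.1, 397 and 651. By contrast 1422746_s_at, at 203, 388 and 326, and 1422745_at, at 47.3, 126 and 87.9, were highest in EGFP cells. Dimmer Slc25a30 probe sets kept the order, with 100.2, 405 and 719 by 1420835_at and 95.3, 483 and 795 by 1450018_s_at. Likeness over 3 arrays is a description of 3 points.

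Mmp2, gelatinase A, the enzyme that MMP-14 activates, differed less. Its brighter probe set (1439364_a_at) had signals of 166 in DGK-zeta cells, 280.1 in EGFP cells and 232 in untreated cells, which is -0.76 (log2) against EGFP cells and -0.49 against untreated cells. The other (1416136_at) had 167, 245 and 232, with log2 ratios of -0.55 and -0.47. Both probe sets were lowest in DGK-zeta and highest in EGFP cells, and both exceeded the probe set SD of 0.40 against EGFP but not that of 0.50 against untreated cells.

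Mmp11, stromelysin 3, which is activated inside the secretory pathway by furin, was highest in EGFP cells. Its 1 probe set (1417234_at) had signals of 154 in DGK-zeta cells, 246 in EGFP cells and 158 in untreated cells. The log2 ratio was -0.68 for DGK-zeta against EGFP, -0.04 for DGK-zeta against untreated and 0.64 for EGFP against untreated. The difference from EGFP thus came with a DGK-zeta signal close to that of untreated cells, and all 3 signals lay near the floor. With 3 other scalings of the arrays the ratios against EGFP stayed below 0 for each of the 3 measured proteinases.

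Secreted proteinases Mmp3, Mmp9 and Mmp13 gave no usable signal. Mmp3, stromelysin 1, had signals of 1.99 in DGK-zeta cells, 5.59 in EGFP cells and 2.38 in untreated cells. Mmp13, the main interstitial collagenase of the mouse, had 0.335, 0.212 and 7.09. Mmp9, gelatinase B, had 21.2, 1.77 and 13.9 by 1416298_at, and 1.08, 14.8 and 5.26 by 1448291_at. The 2 Mmp9 probe sets put the arrays in opposite orders, and no ratio was formed.

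Timp1, which encodes the inhibitor TIMP-1, had signals of 8518 in DGK-zeta cells, 8629 in EGFP cells and 6768 in untreated cells by its 1 probe set. For DGK-zeta the log2 ratio was -0.02 against EGFP cells and 0.33 against untreated cells, and for EGFP against untreated it was 0.35. Both transfected cultures lay slightly above untreated cells, and between them the difference was far smaller than the probe set SD. Timp1 also lay at the median of all genes in this comparison, which was -0.02.

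Timp2, the inhibitor that also helps MMP-14 to activate pro-MMP-2, gave different answers from different probe sets. The brightest (1460287_at) had signals of 7077 in DGK-zeta cells, 7415 in EGFP cells and 7059 in untreated cells. Next to it, 1454677_at had 3516, 3688 and 3706. By these 2 probe sets Timp2 was level, with log2 ratios between -0.08 and 0.07 in all 3 comparisons.

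The other 3 measured Timp2 probe sets sloped, with the arrays in the same order as for Mmp14. The first, 1433662_s_at, had signals of 801 in DGK-zeta cells, 1643 in EGFP cells and 3592 in untreated cells. The second, 1450040_at, had 263, 436 and 1044, and the third, 1420924_at, had 137, 447 and 680.1. Each was lowest in DGK-zeta and highest in untreated cells. Against untreated cells they were 4.49-fold, 3.97-fold and 4.98-fold lower in DGK-zeta cells, in that order, and against EGFP cells 2.05-fold, 1.66-fold and 3.28-fold lower. In EGFP cells they were 2.19-fold, 2.39-fold and 1.52-fold lower than in untreated cells. By 1433662_s_at and 1450040_at the step from untreated to EGFP cells was thus the larger, while for Mmp14 and 1420924_at that from EGFP to DGK-zeta was. The sixth Timp2 probe set, 1437081_at, had signals of 1.88, 12.6 and 2.39 and was not measured.

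Level and sloping Timp2 probe sets shared source records. In the platform annotation 1460287_at, which was level, shared its source record with the sloping 1420924_at and 1450040_at, and the level 1454677_at shared its record with the sloping 1433662_s_at. The suffix _s_at marks a set whose probes match several transcripts, and whether 1433662_s_at reads other transcripts was not tested. The 5 Timp2 log2 ratios of DGK-zeta to EGFP spanned 1.64, from -1.71 to -0.07. Of the 55 genes with 5 or more probe sets measured on all 3 arrays, Timp2 included, 7.27% had a span at least as wide, and the median span was 0.79. Against untreated cells the Timp2 span was 2.32, reached by 3.64% of these genes at a median span of 0.93. For EGFP against untreated it was 1.33, reached by 5.45% at a median span of 0.58.

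The control probe sets for RNA length also differed between the arrays. The quotient of the 3' over the 5' control set for Actb was 2.55 in DGK-zeta cells, 1.43 in EGFP cells and 1.27 in untreated cells. That of Gapdh had the same order over a narrower range, at 0.931, 0.902 and 0.841. Both orders are the reverse of that of the sloping Timp2 and Mmp14 signals. The positions of the Timp2 and Mmp14 probes along their transcripts were not used here, and the part of RNA length in these differences was not tested.

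Timp3, the inhibitor that binds to the matrix and also blocks several ADAM proteinases, was lower in DGK-zeta than in untreated cells by each of its 4 probe sets, all designed from 1 source record. The brightest (1449335_at) had signals of 1064 in DGK-zeta cells, 1175 in EGFP cells and 1630.04 in untreated cells. Behind it, 1419089_at had 403, 613 and 826, 1449334_at had 240.3, 203 and 335, and 1419088_at had 120.5, 184 and 236. The log2 ratios of DGK-zeta to untreated ran from -1.04 to -0.48, and those of EGFP to untreated from -0.72 to -0.36. Between DGK-zeta and EGFP they ran from -0.61 to 0.24, with 1449334_at on the other side of 0. Both transfected cultures were thus below the untreated one by all 4 probe sets, and the probe sets disagreed on the order of the transfected cultures.

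Reck, which encodes a membrane-anchored glycoprotein that inhibits several MMPs, had signals of 103, 102 and 89.7 in DGK-zeta, EGFP and untreated cells, just under the floor. Mmp11 in DGK-zeta cells, at 154, was the lowest signal of a brightest probe set above it. A difference in Reck was not detectable at this signal.

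**Figure D2:**
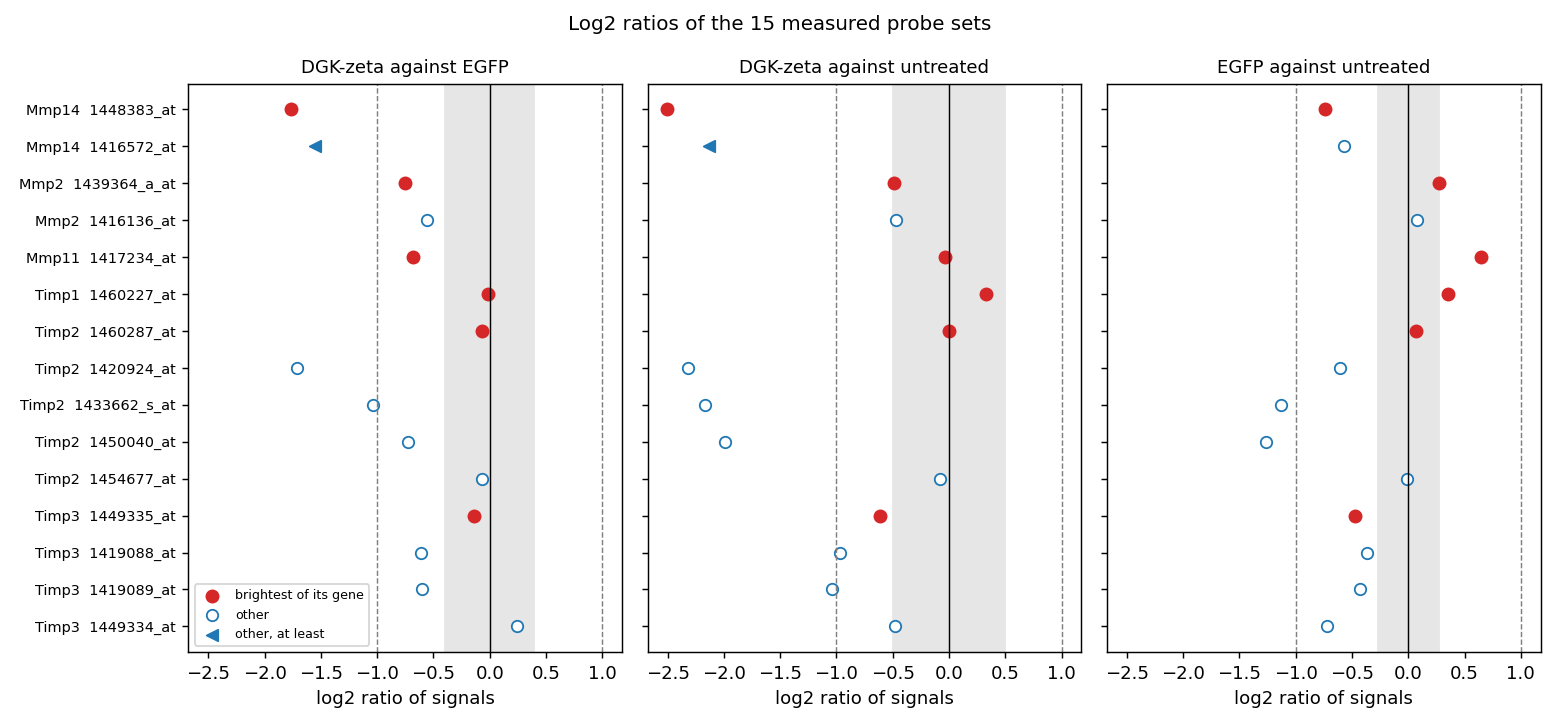
Log2 ratio of signals for the 15 measured probe sets in DGK-zeta against EGFP, DGK-zeta against untreated and EGFP against untreated (a panel each). Filled points are the brightest probe set of a gene, open points the others, triangles bounds; the grey band is the SD of a single probe set to either side of 0 and dashed lines mark 2-fold. Both Mmp14 probe sets and 3 of the 5 for Timp2 lie far left of the band against untreated cells, and 2 Timp2 probe sets sit at 0.

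Over all 15 measured probe sets, 4 were at least 2-fold lower in DGK-zeta than in EGFP cells, both of Mmp14 and 2 of Timp2, where 4.28% of all 10866 named probe sets measured on either array were. Against untreated cells there were 6 of 15, both of Mmp14, 3 of Timp2 and 1 of Timp3, where 5.21% of 10833 were. For EGFP against untreated cells 2 of 15 were, both of Timp2, where 0.785% of 10954 were. None of the 15 was at least 2-fold higher, where 0.497% of all named probe sets were for DGK-zeta against EGFP, 1.84% against untreated cells, and 0.447% for EGFP against untreated. In 9 of the 15 the signal was lowest in DGK-zeta and highest in untreated cells, an order held by 23.7% of 11070 named probe sets measured on any array. The 9 came from Mmp14, Timp2 and Timp3. Probe sets of 1 gene share its transcripts, so the 15 stand for 6 genes, and nothing about the set as a whole is read from these shares.

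By the brightest probe set of each gene, the 6 measured members had a median log2 ratio of -0.41 for DGK-zeta against EGFP, where all genes had -0.02. Against untreated cells the members' median was -0.26 and that of all genes -0.02, and for EGFP against untreated it was 0.17 and 0.02. All 6 ratios against EGFP were below 0, as were those of 52.6% of all 6926 genes. Those of Timp1, Timp2 and Timp3 lay close to 0, at -0.02, -0.07 and -0.14. When the named probe sets of all arrays were given 1 median, that of all genes moved by 0.36 in this comparison and by 0.26 in that with untreated cells, and the ratios of Timp1, Timp2 and Timp3 to EGFP lay above 0 with it. With 1 median over the measured probe sets alone, those of Timp1 and Timp2 also did, at 0.09 and 0.04. Relative to all genes Timp1, Timp2 and Timp3 were at 0.01, -0.04 and -0.11 under the first of these scalings.

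The members' medians depended on the setting, and so did the number of members measured, from 4 to 8. Over 10 other settings the median against EGFP lay between -0.63 and 0.15, or between -0.57 and -0.06 relative to the median of all genes. Against untreated cells it lay between -0.75 and 0.15, or between -0.62 and 0.01 relative to all genes. For EGFP against untreated it lay between -0.22 and 0.19.

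**Figure D3:**
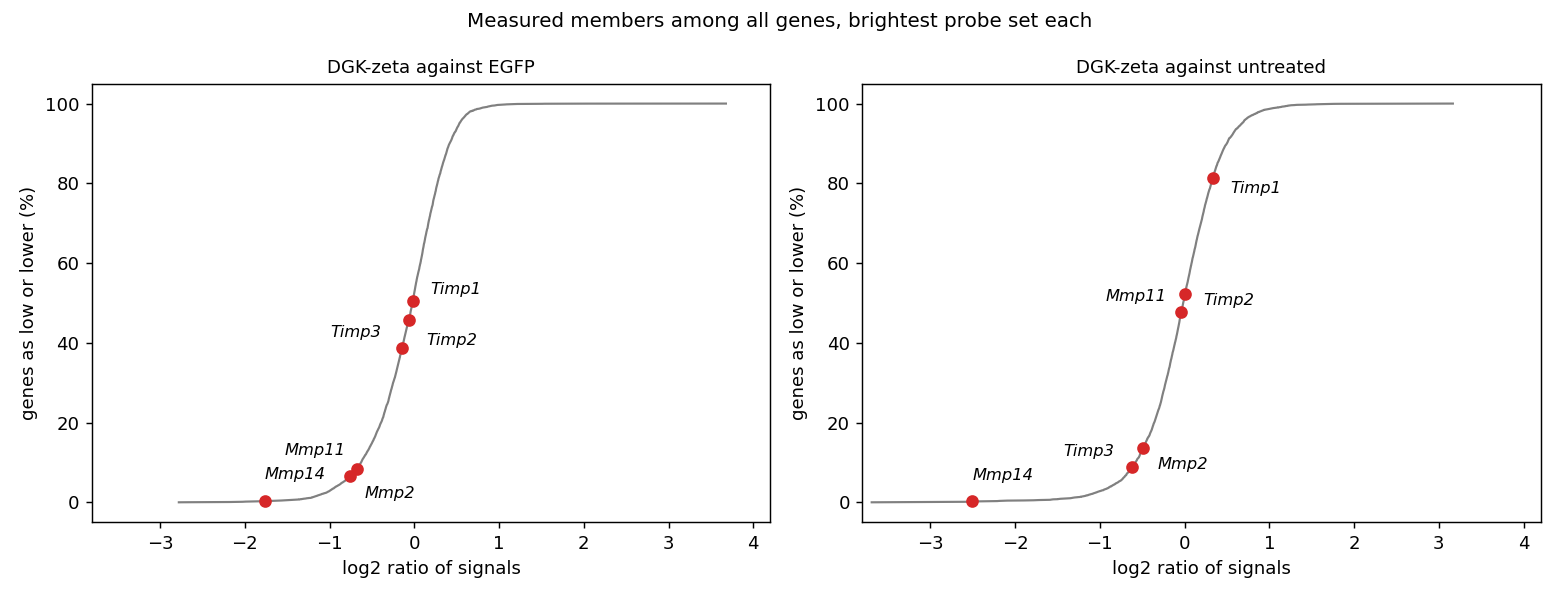
Share of all measured genes with a log2 ratio as low or lower (vertical axis, percent) against the log2 ratio (horizontal axis), for DGK-zeta against EGFP and against untreated cells; the grey curve is all genes by their brightest probe set and red points are the 6 measured members. Mmp14 lies at the low end of both curves, while Timp1 and Timp2 lie in the middle or the upper part.

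Across 10 other settings the Mmp14 log2 ratio of DGK-zeta to EGFP lay between -1.76 and -0.67, the last with the floor at a signal of 562, which is above the Mmp14 signal in DGK-zeta cells and ended the 2-fold call. Over the 9 settings that gave it a value Mmp2 lay between -0.76 and -0.39, and over 8 settings Mmp11 lay between -0.68 and -0.32. For the inhibitors the values are given relative to the median of all genes under the same setting. Timp3 lay below it under all 10 settings, between -0.49 and -0.09. Timp2 ran from -0.55, as the mean over its probe sets, to 0.05, and Timp1 over 9 settings from -0.08 to 0.04, so that these 2 inhibitors lay on either side of it.

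**Figure D4:**
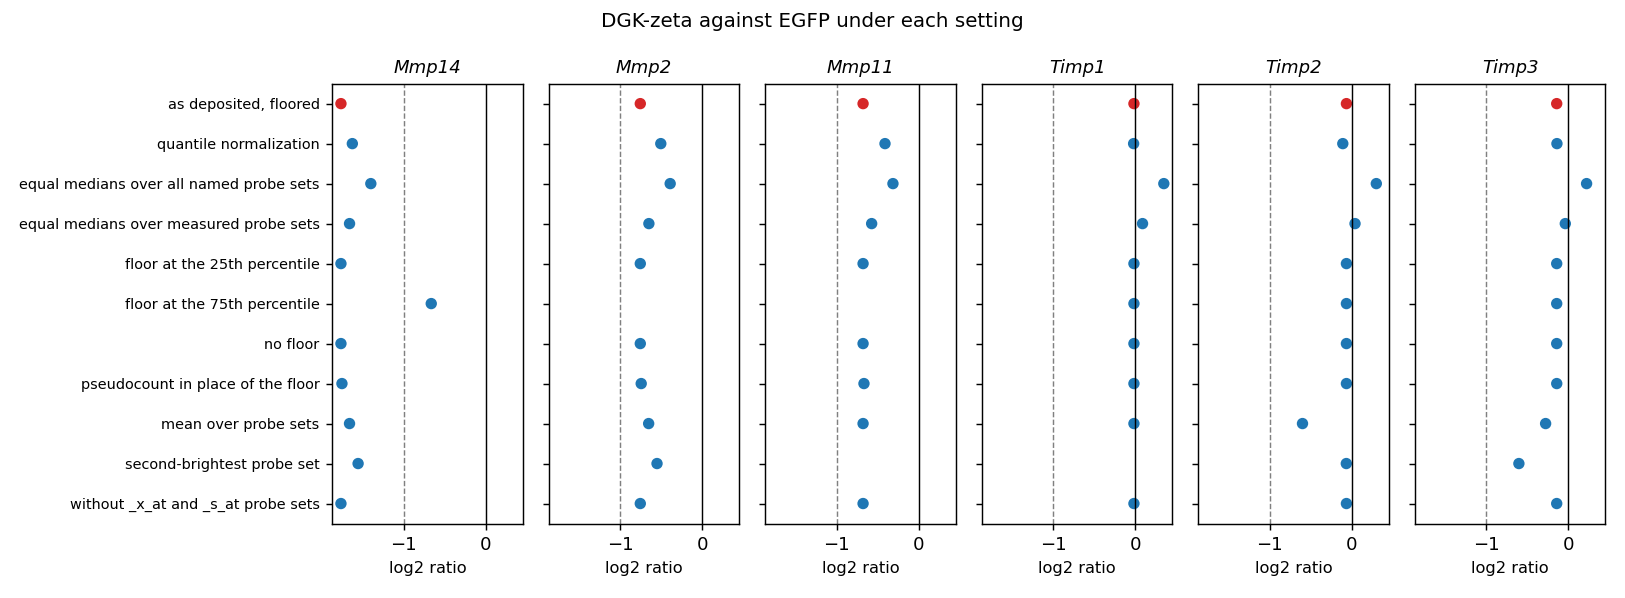
Log2 ratio of DGK-zeta to EGFP for the 6 measured members (a panel each) under the deposited scaling with the floor (red) and under other settings of scaling, floor and probe set (blue), 10 for Mmp14, Timp2 and Timp3, 9 for Mmp2 and Timp1 and 8 for Mmp11; the dashed line marks 2-fold lower. Mmp14 stays left of the dashed line except with the floor at the 75th percentile, and the 3 Timp genes lie above 0 when the named probe sets of all arrays were given 1 median, which moved the median of all genes by 0.36.

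A list of transcription factors drawn up for MMP promoters was looked at next. It held 22 genes, of which 20 were on the array and 16 measured in the comparisons of DGK-zeta. Against EGFP 2 were at least 2-fold lower, where 2.84% of all genes were, and 0 higher, where 0.347% were. The list's median was -0.12. Sp1 had a log2 ratio of -2.03 by its 1 measured probe set, and Snai1, a repressor of epithelial genes that is known to raise MMP expression, had signals of 120.4, 261 and 171 in DGK-zeta, EGFP and untreated cells, a log2 ratio of -1.12. Etv4, an ETS factor, was at -0.85 and Egr1, an immediate early zinc finger factor, at 0.79. Against untreated cells 2 were at least 2-fold lower, where 2.80% of all genes were, and 0 higher, where 1.34% were. These 2 were Sp1 at -2.56 and the AP-1 subunit Junb, at least 3.04-fold lower. Junb had signals of 83.1 in DGK-zeta cells, 171 in EGFP cells and 326 in untreated cells. The list's median there was 0.04. Jun, the AP-1 subunit, was at -0.61 against EGFP by its probe set of highest mean and at 0.03 by the other, and Sp3, a factor related to Sp1, was at 0.56. Other genes of this list had dimmer probe sets that were low in DGK-zeta cells while the brightest was not. Such a tilt was not particular to this list. Over the 2245 genes with 2 bright probe sets, the second minus the brightest had a median of -0.13 against EGFP and -0.14 against untreated cells. For Stat3, a factor activated by cytokines, the dimmer 1426587_a_at had signals of 85.2, 307 and 472 in DGK-zeta, EGFP and untreated cells, against 339, 347 and 245 by the brightest. For Tcf4 the dimmer 1416724_x_at had 97.8, 278 and 348, against 308, 350.3 and 239. Tcf4 encodes an E protein and not the beta-catenin partner of the same name, though it stayed in the counts of this list. For Ctnnb1, which encodes beta-catenin, 1430533_a_at had 709, 1341 and 1510.2, against 10223, 8337 and 8628. A dimmer probe set of the ETS factor Ets1, 1426725_s_at, went the other way, with 467, 312 and 239. The brightest Ets1 probe set had 445, 403 and 473. Counted by probe set, 4 of 26 were at least 2-fold lower against EGFP (4.28% of all named probe sets) and 6 of 25 against untreated cells (5.21%). In these comparisons 0 were higher, where 0.497% and 1.84% of all named probe sets were.

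Among 21 genes on the array for activators and other regulators of pericellular proteolysis, 14 were measured. None was at least 2-fold lower or higher in DGK-zeta than in EGFP cells, where 2.84% and 0.347% of all genes were. The median was -0.12. Cd44, the hyaluronan receptor that holds MMPs at the cell surface and is cut by MMP-14, had signals of 2333 in DGK-zeta cells, 4107 in EGFP cells and 5211 in untreated cells. Cd44 thus lay at -0.82 (log2) against EGFP cells and -1.16 against untreated cells, and its other probe set (664, 1198 and 1582) gave -0.85 and -1.25. By brightest probe sets, Cd44 alone of this list was at least 2-fold lower than in untreated cells, where 2.80% of all genes were. None was at least 2-fold higher, where 1.34% were. By its dimmer probe set the matrix glycoprotein Thbs1 was at -1.18, and by the brighter at -0.93. Lrp1, the endocytic receptor that clears MMPs and TIMPs, was at -0.68 against EGFP and -0.96 against untreated cells. Bsg, the MMP inducer basigin, was at -0.63 and -0.21. Itgav, the integrin alpha v subunit, was at 0.89 against EGFP by its brightest probe set and at -0.39 by the other measured one. Furin, the convertase that activates MMP-14 and MMP-11, was level, with signals of 337, 354 and 327.

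The other 13 MMP family genes on the array, Timp4 included, gave 1 measured gene. This was Mmp16, a further membrane-type MMP, with signals of 179 in DGK-zeta cells, 132 in EGFP cells and 168 in untreated cells, which is 0.44 (log2) against EGFP cells and 0.10 against untreated cells. Of 16 ADAM and ADAMTS genes on the array, a related proteinase group, 10 were measured in the comparison of DGK-zeta with EGFP. None was at least 2-fold apart, where 2.84% of all genes were lower and 0.347% higher, and the median was 0.02. By the brightest probe sets the largest ratios were those of Adam10, a sheddase of cell surface proteins, at 0.41, Adam15 at -0.31 and Adam17 at -0.28. The 2 other Adam10 probe sets disagreed with the brightest. Against EGFP 1 gave at least 0.01, with EGFP under the floor, and the other 0.05. Against untreated cells they gave -0.68 and -0.66, where the brightest gave 0.23. Against untreated cells the median of the ADAM and ADAMTS genes was -0.10, and Adamts5, an aggrecanase, was at 0.57. Again 0 genes were 2-fold apart, where 2.80% of all genes were lower and 1.34% higher.

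In the comparison of EGFP with untreated cells no member was at least 2-fold lower or higher by its brightest probe set, where 0.303% of 6932 genes were lower and 0.361% higher. Mmp14 at -0.74 and Timp3 at -0.47 were below 0, and Mmp11 at 0.64, Timp1 at 0.35, Mmp2 at 0.27 and Timp2 at 0.07 above it. Mmp14 was thus lower in both transfected cultures than in the untreated one, and among the 6932 genes 0.822% were as low or lower. The list of proteolysis regulators had a median of -0.14, with Plat, the tissue plasminogen activator, at 0.77 and Thbs1 at -0.43. The ADAM list had a median of -0.07 and the transcription factors of 0.08, with Junb at -0.93 and Jund at 0.83, and 0 genes of these lists were 2-fold apart.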

How the data were processed

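Biotin-labelled RNA (Affymetrix one-cycle labelling, per the labels' protocols) of 1 sample per group went on 1 array each. The authors deposited MAS5 intensities per probe set, as the submitters' processing notes name the tool; sources used here give neither its version nor the scaling target or detection calls. Each array has a mean of 499.9 or 500.0 between its 2nd and 98th percentile, so no further scaling was applied. The median signals still differ, at 92.5 for DGK-zeta, 119 for EGFP and 111 for untreated, so equal trimmed means do not make dim signals comparable. Symbols come from the platform annotation: 20380 probe sets have 1 symbol, 691 several and 1555 none, and 64 are controls. RefSeq GRCm38.p6 supplied 20351 matches by gene ID, 0 of them with another symbol, and the promoters. Genes were represented by the probe set of highest mean log2 signal, values were floored at the 50th percentile (107), and a 2-fold ratio counted as apart. All probe sets of members are reported. With 1 array per group there is no test and the number of arrays limits precision. Counting was tested on simulated data with changes put only into genes far above the floor. That test does not cover genes at lower signals. Named genes are all members, members of 4 related lists at least 2-fold apart or with the largest ratios, and the 5 genes most like Mmp14. Furin and the dimmer probe sets of Stat3, Tcf4, Ctnnb1 and Ets1 were named after their values were seen. Members and lists were chosen with earlier results of these data known. Alternatives were 3 scalings, 4 treatments of low values (a floor at the 25th or at the 75th percentile, none at all, or 3.17 added as pseudocount), 3 choices of probe set, and 1.5-fold and 3-fold rules. In the second-brightest setting the probe set was picked by the EGFP and untreated arrays alone, which favours sets low in DGK-zeta cells. The median of all genes was then -0.12 against EGFP and -0.13 against untreated cells. Python 3.11.15, numpy 2.4.6, pandas 2.3.3 and matplotlib 3.10.9 were used.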

Additional observations from a re-analysis of the deposited data

How the results depend on the processing

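Of 348 values recomputed under 12 alternatives, 310 stayed close to the reported one. Many of these were counts of 0 that were 0 again, or ratios of genes whose probe set and signals a setting left as they were. The share that stayed is therefore no measure of how firm the results are. Close means within 1.5 times for counts and within the single probe set SD for ratios of 1 gene. For medians it means on the same side of 0 and within that SD over the square root of 6. Of the counts 134 stayed and 16 moved, and of the ratios of 1 gene 162 stayed and 6 moved. More medians moved (16) than stayed (14). None of the ratios past 2-fold changed sign. The count of members lower than EGFP in DGK-zeta cells (1 as reported) was 0 with the floor at the 75th percentile, a signal of 562 that lies above Mmp14 in DGK-zeta cells, and 3 by a 1.5-fold rule; the count lower than both was 0 with that floor. Against untreated cells it was 2 by a 1.5-fold rule, with the mean over probe sets and with the second-brightest one. For EGFP against untreated the 1.5-fold rule gave 1 lower and 1 higher member. Of the 15 probe sets, those lower against EGFP (4) numbered 1 with the high floor, 9 at 1.5-fold and 2 at 3-fold; those lower against untreated (6) numbered 2 with the high floor; and for EGFP against untreated (2 lower, 0 higher) they numbered 1 with the high floor, 5 lower and 1 higher at 1.5-fold, and 0 lower at 3-fold. The members' median against EGFP (-0.41) was 0.15 when the named probe sets of all arrays were given 1 median, -0.039 with 1 median over the measured probe sets, -0.14 after quantile normalization, -0.11 with the floor at the 25th and again at the 75th percentile, -0.63 with the mean over probe sets and -0.58 with the second-brightest. Against untreated cells (-0.26) it was 0.15, 0.012 and -0.041 with these 3 scalings in turn, -0.017 with the floor at the 25th percentile, -0.63 with the mean and -0.75 with the second-brightest. That of EGFP against untreated (0.17) was -0.20 with the high floor, -0.16 with the mean over probe sets and -0.22 with the second-brightest. The cause of the probe set differences was not tested. Mmp14 ranged from -1.76 to -0.67 against EGFP and from -2.50 to -1.40 against untreated cells. No paired analysis was possible because each group has 1 array. Signals near the floor, those of Mmp2, Mmp11 and Reck among them, limit what can be seen.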
